A study of Homo sapiens with 6 samples.

Results

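The genes of the H2A and H2B families that lie in the histone gene clusters were followed in PANC-1 cells, an established human pancreatic cancer line, treated with anlotinib or with its solvent. Every probe set whose array annotation holds a gene symbol starting with H2AC or H2BC and a number was taken. This gave 45 of the 39219 probe sets of the deposited table, 18 for H2A and 27 for H2B, and they name 27 genes (13 of H2A and 14 of H2B). Of these genes, 25 are read by a probe set that names no other gene. The other 3 probe sets name 2 genes each and are marked where they appear (H2AC18 with H2AC19, at 2 probe sets, and H2AC7 with the H3 gene H3C4). The family was chosen by the log2 fold changes of this same comparison, in which some members were already known to move far, so the changes are described and carry no test of their own.

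The 3 anlotinib samples received 5.535 μM for 48 h and the 3 control samples received DMSO for the same time. The line is the same in both groups and carries no engineered allele, and the drug, anlotinib, blocks a number of receptor tyrosine kinases. Affymetrix PrimeView arrays were used, whose probes lie mostly near the 3′ end of each mRNA. All values are log2 signals, and every log2 fold change is anlotinib minus DMSO with n = 3 arrays per group. Whether each sample came from its own culture is not given in the labels, so the errors measure the spread between these samples, which may be technical.

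Nucleosomes wrap DNA around a core of histones H2A, H2B, H3 and H4, and H2A pairs with H2B as a dimer. Most of these proteins are made from clustered genes that are transcribed together while DNA is replicated. Their mRNAs usually end in a stem-loop in place of a poly(A) tail, bound by the stem-loop binding protein SLBP. In cells that leave the cell cycle, some of the same genes also give polyadenylated mRNAs. The labeling used here starts from poly(A), so the arrays read the tailed fraction most directly. The samples were bulk RNA, in which more cells in a given phase and more RNA per cell cannot be told apart.

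Most H2A and H2B cluster probe sets read higher with anlotinib. A probe set was called where it differed 2-fold or more with an FDR under 0.05 in limma, fitted over all 39063 probe sets that passed the filters, and 43 of the 45 were among them. Of these, 25 were called higher and 1 lower, while 17 were not called. Over all tested probe sets 2.38% were called higher and 1.71% lower (4.09% in either direction), and since this comparison chose the genes, nothing is read from the difference. The median log2 fold change was 1.56 for the 17 tested H2A probe sets and 1.29 for the 26 of H2B, against -0.022 over all tested probe sets. A pair of H2BC21 probe sets holds identical values and is counted as 2 here and in the counts that follow unless stated. Counted once, 42 were tested and 16 were not called, and the H2B median was 1.53 over 25. The anlotinib arrays lay wholly above the DMSO arrays at 29 of the 43 and wholly below at 2, where 31.5% and 31.6% of all tested probe sets do so (63.1% in either direction). Changes of at least 8-fold upward occurred at 17 tested probe sets in all (0.0435%), and 10 of these belong to H2A or H2B cluster genes.

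**Figure D1:**
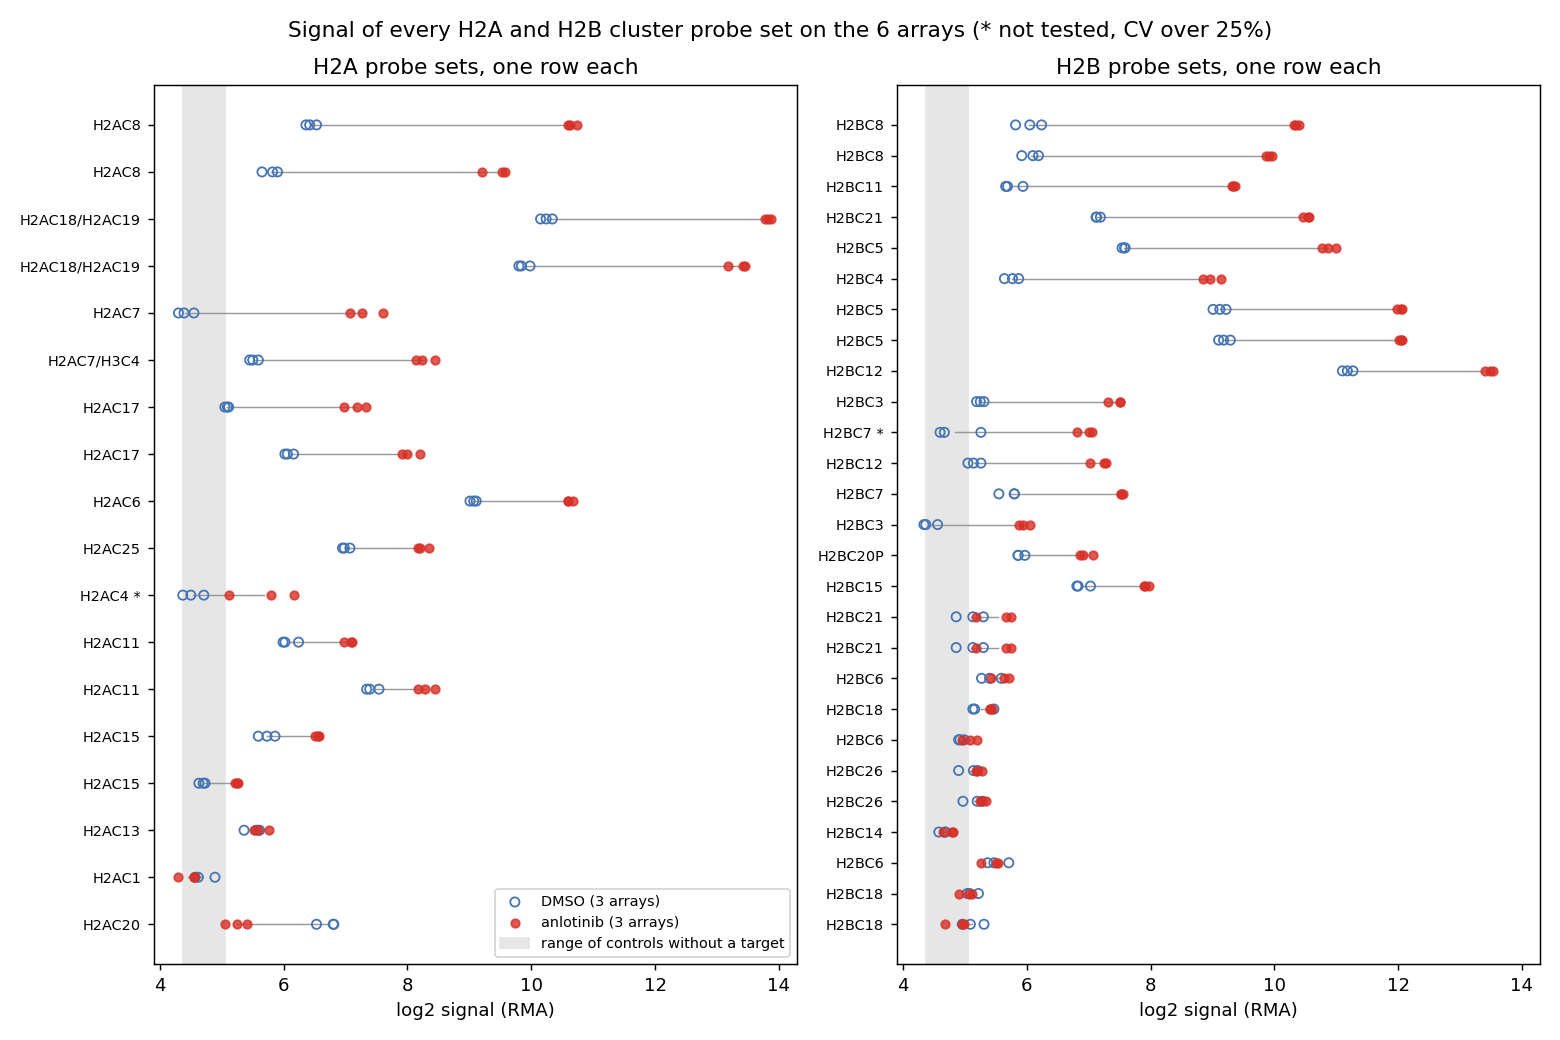
Log2 signal (x axis) of the 45 probe sets (1 row each) on the 3 DMSO arrays (open circles) and the 3 anlotinib arrays (filled circles). A line joins the group means, and a grey band marks the range of 5 control probe sets without a target (4.37 to 5.05). The rows with the widest gaps are those of H2AC8, H2AC18 with H2AC19, H2BC8, H2BC11, H2BC21 and H2BC5, while H2AC20 runs the other way.

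Among the H2A genes, H2AC8 showed the largest change. Its probe set 11731693_at read 6.36, 6.53 and 6.42 in DMSO and 10.74, 10.60 and 10.63 with anlotinib. The 3 arrays of a group lay within a narrow band and the groups were far apart, with a log2 fold change of 4.22 (SE 0.062), or 18.7-fold. A second probe set of H2AC8 gave 3.64 (SE 0.112).

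H2AC18 and H2AC19 are neighbouring copies that the array does not separate. The probe set 11742657_x_at, which names both, read 10.34, 10.24 and 10.15 in DMSO and 13.82, 13.78 and 13.88 with anlotinib. This signal was already above the table's median in DMSO and rose by 3.58 (SE 0.059), or 11.99-fold. The other probe set naming both read 9.98, 9.84 and 9.80 in DMSO and 13.46, 13.18 and 13.42 with anlotinib, a change of 3.48 (SE 0.085). Which of the copies carried the signal cannot be told apart.

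H2AC7 read 4.39, 4.55 and 4.30 in DMSO and 7.07, 7.60 and 7.27 with anlotinib. The DMSO arrays sat at the level of control probes without a target, and the change was 2.90 (SE 0.135). The probe set shared by H2AC7 and H3C4 read 5.50, 5.45 and 5.59 in DMSO and 8.13, 8.23 and 8.44 with anlotinib (2.75, SE 0.082). H3C4 itself, at a probe set of its own, changed by 2.90 (SE 0.056), so the shared signal cannot be assigned to either gene.

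H2AC17 rose from 5.11, 5.09 and 5.05 in DMSO to 7.33, 6.98 and 7.19 with anlotinib. Its second probe set gave 1.96 where this one gave 2.08 (SE 0.086), and the groups were apart at both. H2AC6 read 9.07, 9.01 and 9.11 in DMSO and 10.59, 10.60 and 10.68 with anlotinib, a change of 1.56 (SE 0.045). The groups of H2AC6 did not overlap, with an SD of 0.045 in DMSO and 0.046 with anlotinib. H2AC25, which lies in the small HIST3 cluster on chromosome 1, read 7.07, 6.98 and 6.95 in DMSO and 8.34, 8.17 and 8.21 with anlotinib (1.24, SE 0.059).

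H2AC20 was the only member called lower. It read 6.53, 6.80 and 6.81 in DMSO and 5.06, 5.40 and 5.25 with anlotinib. All anlotinib arrays lay below all DMSO arrays, just above 5.05, the highest reading of 5 control probe sets without a target. The change was -1.48 (SE 0.105), or 2.78-fold lower. H2AC20 has 1 probe set on the table, so no second reading of the gene was at hand.

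The remaining H2A genes stayed under the 2-fold limit or were not tested. The probe sets of H2AC11 gave 0.97 and 0.88 and those of H2AC15 gave 0.81 and 0.56, with groups that did not overlap. H2AC13 gave 0.11 and overlapped. H2AC1, a gene known for its expression in testis, gave -0.23 at 4.69 in DMSO and 4.46 with anlotinib, within the range of controls without a target. H2AC4 was left out of the test because its CV within the anlotinib group was 34.4%, above the limit of 25%. It read 4.71, 4.37 and 4.50 in DMSO and 5.80, 6.16 and 5.11 with anlotinib, so that the 3 anlotinib arrays spread widely but all lay above the DMSO arrays.

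Among the H2B genes the largest change was that of H2BC8, the head-to-head neighbour of H2AC8. Its probe set 11734796_s_at read 6.05, 6.24 and 5.82 in DMSO and 10.40, 10.32 and 10.35 with anlotinib. The change was 4.32 (SE 0.099), or 20.02-fold, and the second probe set gave 3.84 (SE 0.072). H2BC11 read 5.66, 5.94 and 5.69 in DMSO and 9.33, 9.32 and 9.37 with anlotinib (3.58, SE 0.077). In both genes the anlotinib arrays were closer to each other than the DMSO arrays were.

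The 3 probe sets of H2BC5 gave similar changes, 2.85, 2.92 and 3.31. The one with the largest change, 11728153_x_at, read 7.54, 7.59 and 7.58 in DMSO and 10.86, 10.77 and 11.00 with anlotinib. The other 2 are annotated to different RefSeq transcripts of the gene, and read 9.19 and 9.12 on average in DMSO and 12.04 each with anlotinib.

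H2BC4 read 5.77, 5.87 and 5.64 in DMSO and 8.96, 8.84 and 9.14 with anlotinib, a change of 3.22 (SE 0.092). H2BC12 read 11.10, 11.18 and 11.27 in DMSO and 13.49, 13.40 and 13.54 with anlotinib (2.29, SE 0.060). The groups of both genes were far apart. A second probe set of H2BC12 gave 2.03 (SE 0.085), from a mean of 5.15 in DMSO.

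H2BC21 gave readings that disagree. Its probe set 11717090_a_at read 7.12, 7.13 and 7.19 in DMSO and 10.47, 10.55 and 10.56 with anlotinib (3.38, SE 0.045). The probe sets 11758765_at and 11758766_x_at read 5.13, 4.86 and 5.30 in DMSO and 5.74, 5.67 and 5.18 with anlotinib, with identical values on every array, so they are not separate readings. There the groups overlapped and the difference was 0.43 (SE 0.169). These 2 are annotated to another cDNA of the gene than 11717090_a_at.

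Of the other H2B genes, H2BC3 rose by 1.53 and 2.19 at its probe sets and H2BC7 by 1.82. A second probe set of H2BC7 was not tested because of a CV of 26.5% in DMSO, where it read 5.26, 4.60 and 4.67, against 6.82, 7.01 and 7.06 with anlotinib. The pseudogene H2BC20P and H2BC15 were just inside the 2-fold limit, at 1.05 and 1.04. Just outside it were the probe sets of H2AC11 at 0.97 and 0.88. No probe set of H2BC6, H2BC14, H2BC18 or H2BC26 was called. Their differences ran from -0.25 to 0.17 over 9 probe sets, the groups overlapped at each, and DMSO signals lay between 4.65 and 5.52.

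By gene, the brightest probe set that names 1 gene was taken, by the mean over the arrays of both groups. At these, 5 of 10 H2A genes and 10 of 14 H2B genes were called higher. Of the rest, 1 H2A gene was called lower and 8 genes were not called. The medians were 1.06 for H2A and 2.01 for H2B. By probe set they were 1.56 and 1.29, or 1.56 and 1.53 with the identical pair counted once, so no order of the families is read from these medians. Over all 15253 genes with such a probe set, 321 were called higher and 291 lower, with a median of -0.04.

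The counts are given by cluster as a description. In the large HIST1 cluster on chromosome 6, 20 of 30 tested probe sets were called higher and 0 lower with limma, with a median of 2.0. Over all tested probe sets 2.38% were called higher and 1.71% lower. Below an FDR of 0.05 without the fold limit, 29 of all 43 members were higher and 1 was lower, where 28.3% of all tested probe sets were higher and 28.3% lower. In the HIST2 cluster on chromosome 1, 4 of 10 were called higher and 1 lower, with a median of 0.43. It holds H2AC18 with H2AC19 and the called reading of H2BC21 as well as H2AC20 and H2BC18. In the HIST3 cluster, also on chromosome 1, H2AC25 was called and both probe sets of H2BC26 were not (0.13 each).

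The DMSO signal of the members was mostly low. It lay below the median of all tested probe sets, 7.72, at 39 of 45 probe sets. At 8 of them it lay at or below 5.05, the highest reading of 5 control probe sets designed for sequences that human RNA does not hold, as named by the manufacturer, and 9.67% of all tested probe sets did so. Of these 8, 6 were tested, 2 were called higher (H2AC7 and H2BC3), and 2 stayed at that level in both groups (H2AC1 and H2BC14). The table holds no detection call, so fold changes that start at such signals are those of the signals as given. Another 9 control probe sets, named for background by the manufacturer, averaged 4.98 to 11.27 over all arrays. The level of controls without a target is here that of the 5 alone, and a signal above 5.05 is not thereby shown to exceed background. All 6 probe sets above the median in DMSO were called higher, with changes of 1.56 to 3.58. They belong to H2AC6, H2AC18 with H2AC19, H2BC5 and H2BC12.

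Across the 43 tested probe sets, which share arrays and in part targets, the log2 fold change and the DMSO signal had Pearson's r of 0.41 and Spearman's rho of 0.51. Within H2A these were 0.30 and 0.26 (17 probe sets) and within H2B 0.49 and 0.68 (26 probe sets).

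**Figure D2:**
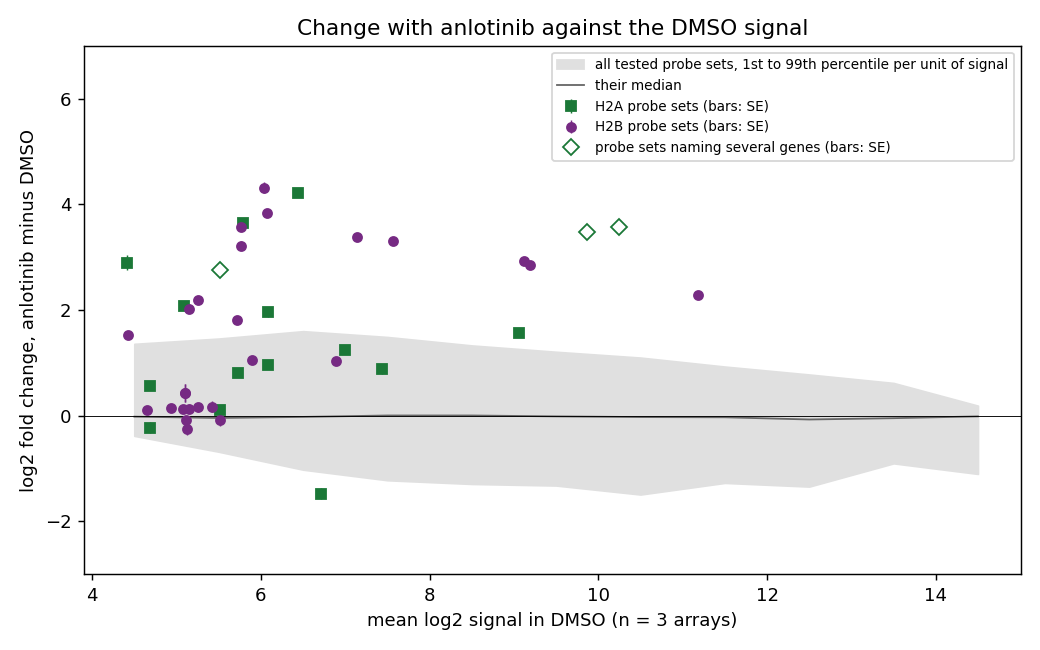
Log2 fold change (y axis, anlotinib minus DMSO, bars SE) against the mean DMSO signal (x axis, log2) for the 43 tested members, over a grey band from the 1st to the 99th percentile of all tested probe sets at each unit of signal. Members above the band occur from the bottom of the scale (H2AC7 at 4.41) to 11.18 (H2BC12), those of H2BC6, H2BC14, H2BC18 and H2BC26 lie near 0 at signals up to 5.52, and H2AC20 is the point below the band.

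Many of these genes stand head to head, an H2A gene and an H2B gene transcribed away from each other from start sites close together. RefSeq (GRCh38.p14) places 11 such pairs among the H2A and H2B cluster genes with promoters in its table, with 193 to 247 bases between the starts. Both genes were tested in 7 of them, and both were called higher in 3. In each of these 3 at least 1 gene is read by a probe set marked _s_at or _x_at, which can also read related genes. In H2AC8 with H2BC8 the changes at the brightest probe sets were nearly equal (4.22 and 4.32), and their second probe sets gave 3.64 and 3.84. In H2AC7 with H2BC7 they were 2.90 and 1.82, and in H2AC6 with H2BC4 they were 1.56 and 3.22. H2AC15 with H2BC15 gave 0.81 and 1.04, where the second alone passed the limit.

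The genes of the remaining 3 pairs were also not called alike. In H2AC20 with H2BC21 the brightest probe sets ran in opposite directions (-1.48 and 3.38), though the other reading of H2BC21 was 0.43. In H2AC11 with H2BC11 the changes were 0.88 and 3.58. In H2AC25 with H2BC26 they were 1.24 and 0.13, the second at a signal of 5.15 in DMSO, near that of controls without a target. The probes differ between the genes of a pair, so the size of a gap also depends on them.

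**Figure D3:**
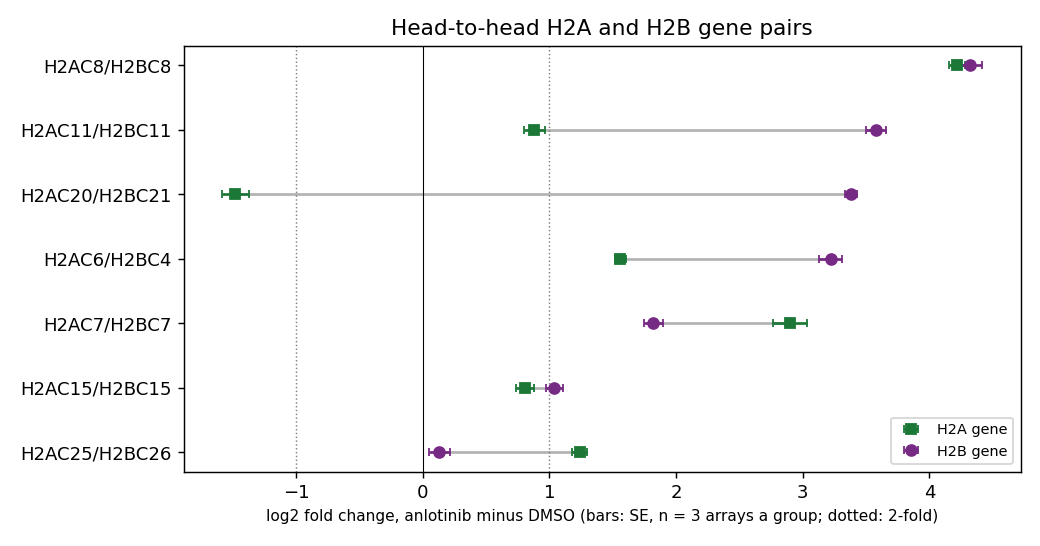
Log2 fold change (x axis, anlotinib minus DMSO, bars SE, n = 3 arrays a group) of the H2A gene (square) and the H2B gene (circle) of each of the 7 head-to-head pairs tested on both sides, at the brightest probe set of each gene. H2AC8 and H2BC8 lie almost on each other at 4.22 and 4.32, and H2AC20 and H2BC21 lie farthest apart at -1.48 and 3.38.

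The stretches between the start sites are shown for 4 pairs, 1 with both genes called higher by similar amounts and 3 not called alike. Each stretch lies upstream of both genes. Each is the plus strand of GRCh38.p14 from RefSeq, with the left gene of the name transcribed to the left. Capitals mark the octamer ATTTGCAT, the motif of the factor OCT1 known from H2B promoters, the CCAAT box (CCAAT) and the TATA box (TATAAA), each on either strand.
H2BC8-H2AC8, chr6:26216689-26216920: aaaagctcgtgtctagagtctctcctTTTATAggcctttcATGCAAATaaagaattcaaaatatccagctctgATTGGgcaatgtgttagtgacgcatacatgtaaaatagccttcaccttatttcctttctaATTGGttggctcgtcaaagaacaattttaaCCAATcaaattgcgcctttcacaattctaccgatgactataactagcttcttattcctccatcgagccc
H2BC21-H2AC20, chr1:149886683-149886917: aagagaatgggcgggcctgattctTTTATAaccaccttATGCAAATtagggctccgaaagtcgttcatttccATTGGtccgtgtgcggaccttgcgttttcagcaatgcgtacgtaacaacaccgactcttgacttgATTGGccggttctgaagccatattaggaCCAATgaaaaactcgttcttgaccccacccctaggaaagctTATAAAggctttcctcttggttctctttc
H2BC11-H2AC11, chr6:27132796-27133042: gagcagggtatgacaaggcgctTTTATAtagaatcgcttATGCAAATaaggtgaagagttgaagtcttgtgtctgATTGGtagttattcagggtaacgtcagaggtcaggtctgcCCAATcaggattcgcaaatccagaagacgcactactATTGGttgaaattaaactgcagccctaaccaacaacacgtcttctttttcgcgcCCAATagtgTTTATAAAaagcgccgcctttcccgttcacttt
H2AC25-H2BC26, chr1:228457874-228458102: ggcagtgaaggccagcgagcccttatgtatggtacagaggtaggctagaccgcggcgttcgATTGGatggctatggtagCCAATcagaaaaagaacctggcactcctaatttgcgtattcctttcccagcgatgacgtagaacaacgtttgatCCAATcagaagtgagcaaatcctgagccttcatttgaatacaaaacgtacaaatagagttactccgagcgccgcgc

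The first 3 stretches hold 1 octamer each and the fourth holds none. In H2BC8-H2AC8, H2BC21-H2AC20 and H2BC11-H2AC11 the octamer lies at the H2B end, next to a TATA box read toward the H2B gene, where the last has the overlapping letters TTTATAAA at its H2A end. H2BC21-H2AC20 has 1 octamer, 3 CCAAT boxes and 2 TATA boxes, and H2BC8-H2AC8 has 1, 3 and 1. H2AC20 read lower and H2AC8 higher with anlotinib, and any part of these letters in the changes was not tested. Such letters are a description of the window and not a site in use.

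The same letters were counted in the 250 bases before the start of every gene in the table. Promoters were found for 26 of the 27 genes. CCAAT was present in all 13 H2A and all 13 H2B promoters, as in 33.0% of all 27305. The octamer was present in 8 of 13 H2A and 10 of 13 H2B promoters, against 1.66% of all, and TATAAA in 10 and 9, against 11.1%. The windows of head-to-head genes overlap, so the genes of a pair are not separate counts. Among the H2B genes, those with the octamer had a median log2 fold change of 2.24 (10 genes) and those without it 1.04 (3 genes). H2BC6, H2BC14 and H2BC18 hold it and were not called, and H2BC5 lacks it and rose by 2.85.

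Gene structure gave another grouping. For H2BC4, H2BC5, H2BC12, H2BC18 and H2BC21 RefSeq lists a gene longer than 1 kb, and all but H2BC21 have 2 transcripts in its table. Of 12 probe sets of these genes 7 were called higher, with a median of 2.16, and the 5 that were not are those of H2BC18 and the identical pair of H2BC21. With that pair counted once, 7 of 11 were called higher, with a median of 2.29. Of 31 tested probe sets of the short genes 18 were called higher and 1 lower, with a median of 1.24. Over all tested probe sets 2.38% were called higher and 1.71% lower. Changes of at least 8-fold occurred in both kinds, in H2AC8, H2AC18 with H2AC19, H2BC8 and H2BC11 among the short genes and in H2BC4, H2BC5 and H2BC21 among the long ones.

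Possible cross-hybridization bears on the same counts. H2A genes resemble each other closely, as do H2B genes, and probe sets marked _s_at or _x_at can read more than 1 of them, while _a_at marks several transcripts of 1 gene. Among the 20 tested probe sets without the marks _s_at or _x_at 10 were called higher and 1 lower, with a median of 1.01. Among the 23 with one of them 15 were called higher and 0 lower, with a median of 1.96. The shares over all tested probe sets were 2.38% higher and 1.71% lower. Those without these marks that were called higher include probe sets of H2AC8 (4.22), H2BC21 (3.38), H2BC5 (2.85 and 2.92), H2BC12 (2.29 and 2.03) and H2AC17 (2.08). How much of the signal at an _s_at or _x_at probe set came from a related gene was not tested.

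The genes of the comparison lists were counted at the brightest probe set of each. Of the other cluster histones, 2 of 9 H3 genes were called higher (H3C4 at 2.90 and H3C2 at 1.19) and 0 lower, with a median of 0.29. Of 9 H4 genes 3 were called higher, among them H4C5 with 3.44 (SE 0.114), and 1 lower, H4C3, with a median of 0.46. H4C3 changed by -1.13 (SE 0.039) from a mean DMSO signal of 14.34. Below an FDR of 0.05, 5 of the 9 H3 genes were higher and 0 lower, and 5 of the 9 H4 genes were higher and 1 lower. Over all tested probe sets these shares were 28.3% and 28.3%. Of 4 linker histone genes 0 were called with limma, while 2 were higher and 1 lower below an FDR of 0.05 (H1-2 at 0.96). Of 9 measured histone genes listed for their polyadenylated mRNAs, 0 were called higher and 1 lower, CENPA of the centromere at -1.05. Among the replacement histones, H2AX gave -0.11, H2AZ1 0.32, H2AZ2 -0.26 and H2AJ 0.61. Below an FDR of 0.05 3 of the 9 were higher and 4 lower, where 28.3% of all tested probe sets were higher and 28.3% lower.

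Of 22 measured genes that act in transcribing and processing histone mRNA, 1 was called higher and 0 lower, with a median of 0.27. ZNF473, which encodes a protein that binds the U7 snRNP in histone 3′ end processing, read 7.82, 7.76 and 7.72 in DMSO and 9.16, 9.25 and 9.17 with anlotinib. Its groups were far apart, by 1.42 on the log2 scale (SE 0.047), and limma gave an adjusted p of 1.5e-06. SLBP gave 0.31 (SE 0.059), and NPAT, the coactivator of histone transcription at the clusters, gave 0.23 (SE 0.042). The cyclins of S phase entry gave values of opposite sign, CCNE1 at 0.88 (SE 0.047) with groups that did not overlap and CCNE2 at -0.19 (SE 0.068) with groups that did. Below an FDR of 0.05 without the fold limit, 14 of the 22 were higher and 6 lower, where 28.3% of all tested probe sets were higher and 28.3% lower.

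Histone genes of this kind are normally expressed together with the genes of DNA replication. Of 35 measured replication genes 0 were called higher and 2 lower, PRIM1 of the primase at -1.18 (SE 0.060) and CCNA2, cyclin A, at -1.08 (SE 0.052). MCM6 of the replicative helicase was called lower at another probe set (-1.10), so that 3 genes were lower at any probe set. Below an FDR of 0.05 6 were higher and 19 lower, where 28.3% of all tested probe sets were higher and 28.3% lower. The median of the list was -0.20. Of 22 histone chaperones, which carry histones to DNA, 0 were called higher and 1 lower, ANP32E, a chaperone of H2A.Z, at -1.03 (SE 0.049), with a median of -0.06. At any probe set 3 chaperones were called lower, with NAP1L1 at -1.11 and ASF1B at -1.07 and -1.15.

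**Figure D4:**
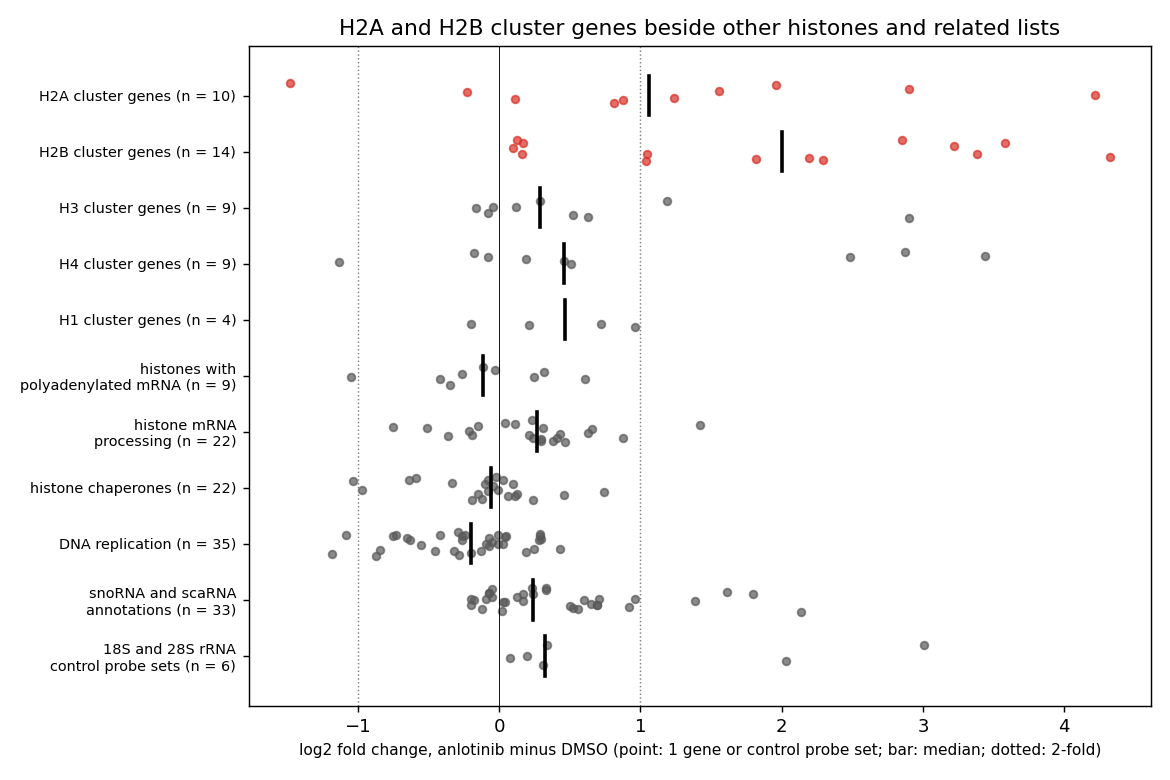
Log2 fold change (x axis, anlotinib minus DMSO) of each gene, at its brightest probe set, for H2A and H2B cluster genes (red) and for the comparison lists and rRNA control probe sets (grey), with a bar at each median. The H2A and H2B points reach from -1.48 to 4.32, the H3 genes from -0.16 to 2.90 and the H4 genes from -1.13 to 3.44. The replication genes lie between -1.18 and 0.43.

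RNAs of other classes that normally carry no poly(A) tail were also listed. Of 33 small nucleolar and Cajal body RNA annotations, 4 were called higher and 0 lower, with a median of 0.24. Below an FDR of 0.05 17 were higher and 2 lower, where 28.3% of all tested probe sets were higher and 28.3% lower. SNORA78 read 6.02, 6.12 and 6.32 in DMSO and 8.31, 8.20 and 8.39 with anlotinib, a change of 2.14 (SE 0.086). The summed signal of the 33 was 11.04 to 11.10 in DMSO and 11.71 to 11.75 with anlotinib, as log2. Probe sets annotated to such RNAs can also read the host transcript, and their part in the histone result was not tested.

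Ribosomal RNA has control probe sets on the array, whose RNA is taken here from the names the manufacturer gave them. The probe set for the 5′ part of 28S rRNA read 10.42, 10.33 and 10.30 in DMSO and 13.38, 13.34 and 13.35 with anlotinib, a difference of 3.01. The middle part of 28S rRNA differed by 2.03 and the 3′ part by 0.08, and the 3 parts of 18S rRNA by 0.20 to 0.34. With 3 arrays against 3 the exact two-sided permutation test cannot go below p = 0.1, which it gave for each of these but the 3′ part of 28S (p = 0.5). The part of such RNAs in the histone result was not tested.

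As a sign of RNA integrity, the 3′ minus 5′ difference of the GAPDH controls averaged -0.339 over the DMSO arrays (SD 0.029) and -0.352 over the anlotinib arrays (SD 0.028), with p = 0.6 in the exact permutation test. The same difference for ACTB averaged -0.140 (SD 0.029) and -0.088 (SD 0.023), where the exact permutation test gave its smallest p of 0.1. The 12 poly(A) spike-in probe sets, added to each sample before labeling, differed by -0.15 to 0.28, with medians of 7.740 ± 0.035 (SD, n = 3) and 7.786 ± 0.074 (SD, n = 3). GAPDH and ACTB controls themselves read 0.27 to 0.34 lower with anlotinib on this log2 scale.

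The arrays were alike within a group (Pearson's r of 0.998 over all tested probe sets) and less so between groups (0.977 to 0.978). KRT8, KRT18 and KRT19, keratins of ductal cells, and VIM, an intermediate filament of mesenchymal cells, read 13.48 to 14.59 in DMSO, while KRT7 read 8.53 and EPCAM 7.32. Of 6 such markers 0 were called with limma at their brightest probe sets and 5 were lower below an FDR of 0.05, while another probe set of KRT8 was called lower, from a mean of 12.04 in DMSO to 11.04. Of 3 measured leukocyte, 4 endothelial, 3 fibroblast and 3 acinar or endocrine markers 0 were called with limma, while 0, 1, 3 and 1 were lower below an FDR of 0.05, and the mean DMSO signals were 4.71 to 6.60. Their summed signals were 7.42 to 7.91 in DMSO and 7.25 to 7.82 with anlotinib. Over all tested probe sets 28.3% were lower below an FDR of 0.05.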

How the data were processed

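PANC-1 cells treated with anlotinib (3 samples) or DMSO (3 samples) were profiled on Affymetrix PrimeView arrays, and groups follow the sample titles. The deposited table holds log2 signals of 39219 probe sets, which the authors made by RMA and R (version 3.6.2), with background adjustment and normalization. The methods also describe removing the lowest 20% of signals, taken here as done in the table. Here 73 control probe sets and 83 with a CV over 25% within a group on the linear scale were left out, and 39063 were fitted with limma 3.58.1 (R 4.3.3, lmFit and eBayes, Benjamini-Hochberg). The scale of the CV is not given in the sources used here. The study gives 39219 probe sets as its number after filtering, so those 83 were left out here and not by the study. With the CV taken on the log2 scale 39146 were tested, the same number as with no CV filter. Calls required a 2-fold change and an FDR under 0.05. The fit was tested on simulated data. Symbols, from the array annotation, were updated through the entrez identifier, which matched RefSeq for 35923 of 35938 probe sets annotated to 1 gene, and 1433 name several genes. Promoters came from RefSeq (GRCh38.p14).

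The genes and lists were chosen with earlier results of these data known. Described in full were the 6 H2A and the 6 H2B genes with the largest change, those called lower, those whose probe sets differ by more than 1, and called probe sets naming several genes. Of other lists up to 4 called genes were named, with SLBP, NPAT and CCNE2, and any further gene was chosen after its values were seen. Arrays give no counts, so the number of arrays limits the precision. Alternatives changed the CV filter, the signal filter, the normalization, the fold limit, the variance model, the probe sets kept and the arrays kept, and added the replicate number as a block.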

Additional observations from a re-analysis of the deposited data

How the results depend on the processing

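Each of the named H2A and H2B probe sets kept its direction and its side of the call, over 246 combinations of a probe set and an alternative that included it. With all arrays 25 members were called higher, and 1 was called lower. Leaving out 1 array at a time gave 24 to 27 higher and 1 lower, with medians of 1.45 to 1.58 for H2A and 1.26 to 1.65 for H2B (1.51 without DMSO replicate 1 and 1.65 without anlotinib replicate 2, where the CV filter kept other numbers of probe sets). With no CV filter, or with the CV taken on the log2 scale, the medians were 1.40 for H2A and 1.53 for H2B, since both untested probe sets then entered. With the lowest 40% of signals left out, 18 members remained, 0 of them called lower (H2AC20 was removed), with medians of 2.72 and 3.26. That filter used the mean over the arrays of both groups. Members with low DMSO signals could therefore pass it through their anlotinib arrays alone, and nothing is read from these larger medians. Without probe sets naming several genes the H2A median was 1.10. Without those marked _s_at, _x_at or _a_at, 8 were called higher, with medians of 0.88 for H2A and 1.05 for H2B. Chosen after seeing the data, leaving out only those marked _s_at or _x_at gave 10 higher, with medians of 0.88 and 1.53, and counting the identical H2BC21 probe sets once gave an H2B median of 1.53. With replicate number added as a block, 25 were called higher and 1 lower, the same numbers as without it. Deviations of same-numbered arrays correlated with r of 0.167, 0.00625 and -0.145. These values do not settle whether the numbers pair the samples, which the labels do not say. Over all probe sets 1596 were called, against 6141 at a fold limit of 1.5 and 2923 with limma's treat at 1.5-fold, where 28 and 26 members were called higher. Signals near those of controls without a target limit what can be said of H2AC1, H2BC6, H2BC14, H2BC18 and H2BC26. The same limit holds for the size of rises that start at such signals, as at H2AC7 and H2BC3.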
